A study of Mus musculus with 2 samples.

Results

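Steroid hormone signalling in uterine stromal cells was described through 9 genes: the receptors Pgr, Esr1 and Nr3c1, the FK506-binding co-chaperones Fkbp4 and Fkbp5, the coactivators Ncoa1 and Ncoa2, and the hormone response genes Klf9 and Zbtb16. They were taken by symbol, as every probe set that the platform annotation pairs with 1 of these symbols alone, which gave 21 probe sets out of 20380 with a single gene symbol, and 9 genes out of 12393. Stromal cells of the uterus form the connective tissue beneath the epithelium and turn into decidual cells around an implanting embryo. They were isolated by enzymatic digestion of uterine horns on day 5 of pregnancy from conditional knockout mice and from floxed control mice, and cells from 3 animals per genotype were pooled and measured on 1 Affymetrix Mouse Genome 430A 2.0 array per pool. Both groups were mated to fertile males, and the day of the vaginal plug counted as day 1. No source used here gives the ages of the animals or says whether the controls carried Cre.

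The conditional knockout was made with the PRcre line, in which Cre recombinase is driven by the progesterone receptor promoter, so deletion is directed to cells that use the Pgr gene. In the commonly used mouse line of that name the Cre sequence sits within Pgr itself, and the labels do not say which line this was. The labels also disagree on the target. The titles name Hif1, and the genotype field and the treatment note name Hif2 alpha (Epas1). The breeding note has Hif1 floxed mice crossed to PRcre to ablate Rac1. The array is therefore called knockout-labelled. Signals at the brightest probe set of each gene are given for the knockout-labelled array against the control array. They were 1544 against 721 for Hif1a, 78.1 against 59.4 for Epas1 and 757 against 1038 for Rac1, all above the floor. Hif1a had 4 probe sets, of which the dimmer ones were also higher, except 1 at the floor on both arrays. Rac1 had 3, of which 1 dimmer one was about 2-fold lower and the last was at the floor on both arrays. Epas1 had 1 probe set only. Where these probes lie relative to any deleted exon was not examined, so the values do not check the genotype.

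Each value is a MAS5 signal, a linear intensity that the authors scaled on each array, and the trimmed mean was 150.1 on both arrays. Signals under a floor of 19.7, the 40th percentile of both arrays, were set to that floor, and a log2 ratio is the knockout-labelled value minus the control value after that. Ratios were formed where at least 1 array was above the floor, and are bounds where the other was not. Of 8593 genes compared, 7866 were above the floor on both arrays. With 1 array per group there are no replicates, no test and no p-value, so each ratio describes these 2 pools and the number of arrays limits the precision. The only error available was the disagreement between probe sets of 1 gene, whose SD over 2658 genes was 0.64 in log2 ratio, which leaves out the spread between animals, pools and arrays. Signal along 2 control transcripts differed between the arrays, and the cause was not tested. For b-actin, 3' probes over 5' probes gave 16.0 on the knockout-labelled array and 2.27 on the control array. For Gapdh they gave 7.25 on the knockout-labelled array and 1.49 on the control array. Of 10 stromal markers all 10 were above the floor on at least 1 array, with a summed signal of 35562 on the knockout-labelled array and 26245 on the control array, although Hand2, a stromal transcription factor, was only just above the floor (22.1 against 21.2). Markers of other cell types were present as well. On the knockout-labelled array against the control array, summed signals were 1980 against 2398 for epithelium (9 of 10 above the floor), 1387 against 2537 for endothelium (7 of 7), 2189 against 2286 for leukocytes (7 of 8) and 8119 against 8557 for smooth muscle (6 of 6). The sums rest on the brightest genes, and gene by gene 7 of 7 endothelial markers and 5 of 6 smooth muscle markers were lower, with median log2 ratios of -1.12 and -1.08, while leukocyte markers ran from -2.93 (Fcer1g) to 1.74 (Ptprc) around a median of -0.62. Epithelial markers had a median of -0.39 and stromal markers one of 0.14. Krt19 and Cd3e were at the floor on both arrays. The part that these cells, or the 3' to 5' difference, play in any value below was not tested, and in pooled RNA fewer cells of a type and less RNA per cell cannot be told apart.

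Steroid receptors are transcription factors that wait in a complex with the chaperone HSP90, bind their hormone, enter or stay in the nucleus and recruit coactivators to their target genes. FKBP proteins join that complex late and set how readily the receptor binds hormone. In the mouse uterus, progesterone acting through its receptor in the stroma restrains estrogen action on the epithelium and is needed for implantation and decidualization, and glucocorticoids act in the same cells through a closely related receptor.

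The DNA before the start of transcription is shown for Klf9, the response gene with the brightest probe sets, and for the co-chaperones Fkbp4 and Fkbp5, so that the receptor and HIF motifs can be looked for in them. RefSeq windows of GRCm38.p6 were matched by symbol for 6 of the 9 genes (Pgr, Esr1, Fkbp4, Fkbp5, Klf9 and Ncoa1), and the 250 bases upstream of the start are printed from 5′ to 3′ on the gene's strand. Capitals mark each match to the motifs searched on both strands: the hypoxia-inducible factor core, ACGTG or GCGTG, and the heat shock factor pair, GAANNTTC or TTCNNGAA. Klf9 is at chr19:23140976-23141225 (plus strand), Fkbp4 at chr6:128438657-128438906 (minus strand) and Fkbp5 at chr17:28486150-28486399 (minus strand).
Klf9: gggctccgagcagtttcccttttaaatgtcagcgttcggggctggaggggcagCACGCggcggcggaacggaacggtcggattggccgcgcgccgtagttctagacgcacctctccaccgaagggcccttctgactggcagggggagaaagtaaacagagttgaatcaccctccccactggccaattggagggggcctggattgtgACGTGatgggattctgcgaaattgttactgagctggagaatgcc
Fkbp4: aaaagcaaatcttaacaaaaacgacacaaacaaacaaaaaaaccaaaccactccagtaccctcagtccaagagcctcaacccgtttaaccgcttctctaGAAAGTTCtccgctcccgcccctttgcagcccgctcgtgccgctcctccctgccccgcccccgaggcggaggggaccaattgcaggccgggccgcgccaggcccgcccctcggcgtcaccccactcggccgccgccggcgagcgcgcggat
Fkbp5: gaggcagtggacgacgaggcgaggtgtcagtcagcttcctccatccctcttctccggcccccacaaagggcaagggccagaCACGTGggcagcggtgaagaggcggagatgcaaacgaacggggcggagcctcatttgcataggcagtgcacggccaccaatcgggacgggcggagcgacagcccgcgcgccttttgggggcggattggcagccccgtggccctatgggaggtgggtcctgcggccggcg
The window of Klf9 held 2 matches to the hypoxia-inducible factor core, starting 197 and 44 bases before the start. That of Fkbp5 held a single CACGTG, 169 bases before the start, in which the core reads on both strands, and Fkbp4 held no core and 1 heat shock pair, 151 bases before the start. Among the windows not printed, that of Ncoa1 held 2 cores, 245 and 209 bases before the start, and those of Pgr and Esr1 held none. The Pgr window (8899583 to 8899832) and 1 of the 2 Esr1 windows (4709908 to 4710157) lie inside the gene spans given below. That of Ncoa1 (4477183 to 4477432) overlaps the span of its gene. The core was present in 38.6% and the heat shock pair in 12.8% of all 32851 windows of that length. The palindrome core ACANNNTGT of the glucocorticoid and progesterone receptors was present in 5.84% of all windows. The site AGAACA, which can overlap it, was present in 16.1%. Neither was matched in any of the 7 windows of the 6 genes, and no estrogen receptor site was searched for. A match is a description of these letters and not a bound site, and nothing follows from the windows without one.

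Ratios could be formed for 8 of the 9 genes, all but Ncoa2. None of the 8 was past 2-fold at its brightest probe set, upward or downward, where 6.21% of all 8593 genes compared passed that size upward and 13.0% passed it downward. With 8 genes, a count of 0 is close to these shares, and nothing about the members is read from it. Their log2 ratios ran from -0.83 (Pgr) to 0.56 (Zbtb16) with a median of 0.08, and the median over all genes was -0.10. By any amount, 5 of the 8 were higher and 3 were lower (4 and 3 without Esr1, whose values were next to the floor, with a median of 0.15), and 44.7% of all genes were higher. Among the 16 probe sets above the floor on at least 1 array, 1 was at least 2-fold lower, a probe set of Klf9, and none was at least 2-fold higher, where 13.9% and 6.84% of all 13284 probe sets passed these sizes. The other 5 of the 21 probe sets were at the floor on both arrays (34.8% of all probe sets with 1 symbol were).

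**Figure D1:**
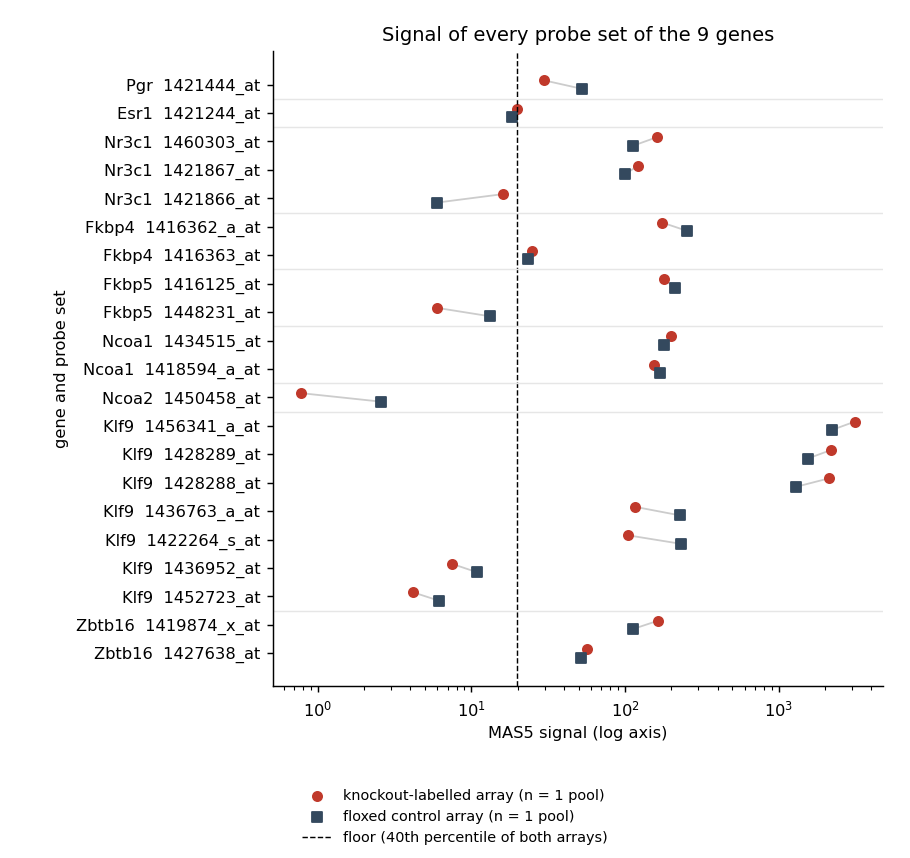
MAS5 signal (log axis) of all 21 probe sets of the 9 genes on the knockout-labelled array (circles) and the floxed control array (squares), 1 pool each, with the floor of 19.7 as a dashed line. Signals run from under 1 for Ncoa2 to 3141 for the brightest probe set of Klf9 on the knockout-labelled array, and 5 probe sets lie under the floor on both arrays.

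Among the receptors, Pgr was the lowest of all members and Nr3c1 was slightly higher. Pgr, the nuclear progesterone receptor (GRCm38.p6, chromosome 9, 8898900 to 8968611), had a single probe set with a signal of 29.7 on the knockout-labelled array and 52.6 on the control array. It was 1.77-fold lower on the knockout-labelled array (log2 ratio -0.83), which is larger than the probe-set SD of 0.64 and under 2-fold. With the mean difference between probe sets kept, the matching root mean square was 0.70. Both values come from genes of all signal levels with 2 probe sets above the floor, and none was made for dim genes alone. Pgr stood above 17.7% of all genes in log2 ratio, and above 19.0% of the genes in the dimmest of 5 equal classes of signal, its own, whose median was -0.24. The ratio was -0.56 after quantile normalization, -0.55 after centring on the median and -0.53 with the trend against signal taken out, all 3 within the probe-set SD. No other probe set of Pgr was available to set beside it, and both signals lie within 3-fold of the floor. The part that the PRcre allele plays in the Pgr value was not tested, and in this design it cannot be told apart from the deletion.

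Esr1, the estrogen receptor alpha gene (chromosome 10, 4611989 to 5005633), was not measured in a usable way. Its only probe set gave 19.8 on the knockout-labelled array and 18.4 on the control array, so the control value was under the floor and the other barely above it. The resulting log2 ratio of 0.00 reflects the floor and gives no direction. Such a value does not show that the RNA was missing.

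Nr3c1, the glucocorticoid receptor (chromosome 18), was higher at both of its measured probe sets. The brightest had a signal of 161 on the knockout-labelled array and 113 on the control array, a log2 ratio of 0.51. The next had 122 on the knockout-labelled array and 100.0 on the control array, a log2 ratio of 0.29. Both ratios are within the probe-set SD, and the gene stayed between 0.29 and 0.79 under all 8 other settings. The third probe set was under the floor on both arrays, at 16.1 on the knockout-labelled array and 5.96 on the control array. Its log2 ratio was 1.24 or higher with the floor at the 25th percentile (6.81), a bound because the control signal was still under that floor.

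Of the other receptors, a list of 12 nuclear and membrane receptors had 7 genes on the array and 4 above the floor. Of these 4, 1 passed 2-fold, downward, where 13.0% of all genes did. That was Esrra, an orphan receptor of energy metabolism, with a signal of 24.5 on the knockout-labelled array and 51.1 on the control array, and its log2 ratio of -1.06 was -0.78 after centring on the median, so it did not stay past 2-fold. Esr2, the second estrogen receptor, was at the floor on both arrays.

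The co-chaperones Fkbp4 and Fkbp5 were both somewhat lower at their brightest probe sets, with ratios inside the probe-set SD. Fkbp4 encodes the large FK506-binding protein that raises progesterone receptor activity, and mice without it have a uterus that responds poorly to progesterone (chromosome 6, 128430103 to 128438656). The gene, whose upstream window holds the heat shock pair, had a signal of 174 on the knockout-labelled array and 255 on the control array, a log2 ratio of -0.55. Its other probe set was close to the floor, at 24.6 on the knockout-labelled array and 23.5 on the control array, with a log2 ratio of 0.07, so its probe sets differed by 0.62. For the 1814 genes with 2 measured probe sets that difference had a median of 0.71. The Fkbp4 ratio stayed negative, between -0.55 and -0.24, under all 8 other settings.

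Fkbp5 encodes the related protein that lowers hormone binding by the glucocorticoid and progesterone receptors, and its gene is itself induced by these hormones (chromosome 17, 28398753 to 28486149). The gene, with CACGTG upstream, had a signal of 180 on the knockout-labelled array and 211 on the control array, a log2 ratio of -0.23 that turned to 0.05 after centring on the median. It lay above 43.5% of all genes, close to the middle of the distribution. The other probe set was at the floor on both arrays (5.94 on the knockout-labelled array and 13.3 on the control array).

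The other FKBP genes went both ways. Of 10 on the array, 4 were 2-fold lower or more and none was 2-fold higher. Of all genes, 13.0% were that much lower and 6.21% that much higher. After centring on the median 2 were lower and 2 were higher by that size, where 670 and 1146 of all 8596 genes were. As deposited, the median log2 ratio was -0.63. The lowest was Fkbp11, a protein of the secretory pathway, with signals of 80.9 on the knockout-labelled array and 314 on the control array (-1.96), though its other 2 probe sets were at the floor. Fkbp2, an immunophilin of the endoplasmic reticulum, had 133 on the knockout-labelled array and 465 on the control array (-1.81). Fkbp7, another protein of the endoplasmic reticulum, had 393.6 on the knockout-labelled array and 848 on the control array (-1.11), and Fkbp8 had 23.7 on the knockout-labelled array and 50.3 on the control array (-1.09). Each of Fkbp2, Fkbp7 and Fkbp8 had only 1 probe set. Another 4 genes of the list were higher by any amount. The list median lay below that of all genes by 0.53, and by between 0.14 and 0.69 under the 8 other settings, and it is given as a description only.

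The HSP90 machinery that carries the receptors held genes at both ends. Of 18 genes compared, 2 passed 2-fold upward and 6 downward, where 6.21% of all genes passed upward and 13.0% downward. The list median of -0.06 turned to 0.22 after centring on the median. There 6 passed upward and 5 downward, where 1146 and 670 of all 8596 genes did. Lower were Stub1, the ubiquitin ligase of chaperone clients (105 on the knockout-labelled array and 454 on the control array, -2.12, with -1.49 at its other probe set), and Cdc37, the adaptor for kinase clients (99.0 on the knockout-labelled array and 417 on the control array, -2.08, with its other probe set at the floor). Stip1, which links HSP70 to HSP90, had a log2 ratio of -1.53 and Sgta one of -1.45, each from a single probe set. The 2 higher genes, named after their values were seen, were Hsp90aa1, the inducible HSP90 itself, and Chordc1, an HSP90 co-chaperone. Hsp90aa1 had 2735 on the knockout-labelled array and 1251 on the control array at its brightest probe set (1.13), and its others gave 0.97 and 0.47. Chordc1 had 745 on the knockout-labelled array and 355 on the control array (1.07), from 1 probe set.

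The coactivators showed no difference in a settled direction. Ncoa1 encodes a p160 coactivator that steroid receptors recruit when hormone is bound (chromosome 12, 4247362 to 4477206). Its brightest probe set had a signal of 198 on the knockout-labelled array and 179 on the control array, a log2 ratio of 0.15. The other had 154 on the knockout-labelled array and 170 on the control array, a log2 ratio of -0.14. The probe sets thus lay on either side of 0 and within the probe-set SD of it, and their median over the gene was 0.00. Ncoa2, the p160 coactivator that mouse uterine stroma needs to decidualize (chromosome 1, 13139105 to 13374227), had a single probe set under the floor on both arrays, at 0.774 on the knockout-labelled array and 2.57 on the control array, so it gave no ratio. Of 16 other coregulators compared, a single gene passed 2-fold, downward, where 13.0% of all genes did (median -0.16, turning to 0.12 after centring on the median). The count was 0 with the trend against signal taken out and with the floor at the 60th percentile. The gene was Ncoa5, with a signal of 28.0 on the knockout-labelled array and 68.2 on the control array (-1.28).

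Klf9 was the brightest member, and its probe sets split by brightness. Klf9 is a zinc finger transcription factor that cooperates with the progesterone receptor in the uterus and is induced by glucocorticoids in several tissues (chromosome 19, 23141226 to 23168129). It had 7 probe sets, and 5 of them exceeded the floor on both arrays. The brightest had a signal of 3141 on the knockout-labelled array and 2215 on the control array (0.50). The next had 2199 on the knockout-labelled array and 1549 on the control array (0.51), and the third had 2119 on the knockout-labelled array and 1289 on the control array (0.72). All 3 of the bright probe sets were therefore higher on the knockout-labelled array. The 2 dimmer ones were lower, at 116 on the knockout-labelled array and 228 on the control array (-0.97), and at 104 on the knockout-labelled array and 231 on the control array (-1.15). The last of these, a probe set whose suffix _s_at marks probes that can match several transcripts, was the only one past 2-fold among the 16 with a ratio, and its log2 ratio of -1.15 became -0.995 after quantile normalization and -0.87 after centring, just within 2-fold. Klf9 as a gene therefore has no settled direction, since its measured probe sets lie on both sides of 0. The middle value of the 5 measured ratios was 0.50. The median over all 7 was 0.00, a value set by counting the 2 at the floor as 0.

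Other genes with several probe sets showed such splits too. The log2 ratios of the 5 Klf9 probe sets spanned 1.86. Over the 82 genes with at least 5 measured probe sets the median span was 1.74, and 37 of them, Klf9 included, spanned at least as much. Of 846 genes with at least 3 measured probe sets, 606 had probe sets on both sides of 0. A stricter count, with probe sets at least 1.4-fold from 0 on each side as for Klf9, gave 292 of the 846. In 72.8% of the 846 the brightest had a higher log2 ratio than the dimmest, with a median difference of 0.64 (1.65 for Klf9). Genes in the brightest of the 5 signal classes, where the bright Klf9 probe sets fall, had a median log2 ratio of 0.31, and removing the trend with signal brought the bright Klf9 probe sets to 0.16, 0.23 and 0.46 and the dimmer ones to -0.84 and -1.01, so the split remained. The b-actin 3' to 5' ratio stood 7.08-fold apart between the same arrays. Its part in the split was not tested, since the positions of the probes were not used here.

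**Figure D2:**
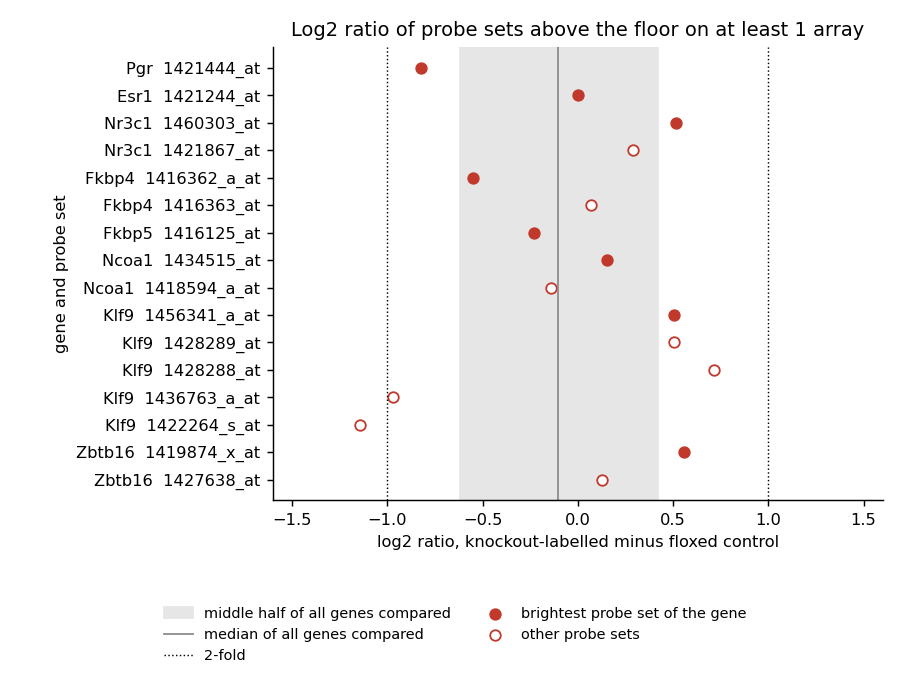
Log2 ratio (knockout-labelled minus floxed control) of the 16 probe sets above the floor on at least 1 array, with filled points for the brightest probe set of a gene, the interquartile range of all genes compared in grey (-0.62 to 0.42) and dotted lines at 2-fold. Klf9 has 3 probe sets between 0.50 and 0.72 and 2 between -1.15 and -0.97, and the control signal of Esr1 was at the floor.

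Zbtb16 was higher at both of its probe sets, by less than the probe-set SD. It encodes a zinc finger repressor that progesterone induces in human endometrial stromal cells and that glucocorticoids induce in many cell types (chromosome 9, 48651797 to 48836225). The brighter probe set, whose suffix _x_at marks probes that can cross-hybridise, had a signal of 165 on the knockout-labelled array and 112 on the control array (0.56). The other had 56.6 on the knockout-labelled array and 51.7 on the control array, a log2 ratio of 0.13. The gene stayed between 0.13 and 0.84 under all 8 other settings.

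The wider sets of hormone response genes were mostly within 2-fold, as were 6940 of all 8593 genes. Of 20 glucocorticoid response genes compared, 3 passed 2-fold downward and none upward, where 13.0% of all genes passed downward and 6.21% upward. The list median of -0.27 turned to 0.01 after centring on the median. There 3 were lower and 1 was higher by 2-fold or more, where 670 and 1146 of all 8596 genes were. The lowest was Tsc22d3, which encodes the glucocorticoid-induced leucine zipper protein. It had a signal of 187 on the knockout-labelled array and 735 on the control array (-1.98), and its other probe sets gave -1.94 and -0.81, so all 3 were lower. Klf15, a glucocorticoid-induced relative of Klf9, had 37.0 on the knockout-labelled array and 127 on the control array (-1.77). Zfp36, which shortens the life of inflammatory messenger RNAs, had 678 on the knockout-labelled array and 1667 on the control array (-1.30). These 3 are named because they were past 2-fold, and 8 of the 20 were higher by any amount.

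Of 17 uterine progesterone response genes compared, 2 passed 2-fold downward and none upward (median -0.30), where 13.0% of all genes passed downward and 6.21% upward. After centring, 1 was lower and 2 were higher by that size, where 670 and 1146 of all 8596 genes were. Hoxa11, a homeobox factor of the stroma, had 107.7 on the knockout-labelled array and 389 on the control array (-1.85). Gata2, a partner of the progesterone receptor, had 109 on the knockout-labelled array and 232 on the control array (-1.09), but its other probe set gave -0.04. Of 15 estrogen response genes, 1 was higher and 1 lower by 2-fold or more, where 6.21% of all genes were higher and 13.0% lower. The list median was 0.07, turning to -0.03 with the median over probe sets. After centring 3 were higher and 0 lower by that size, where 1146 and 670 of all 8596 genes were. The growth factor gene Igf1 had 2032 on the knockout-labelled array and 724 on the control array at its brightest probe set (1.49), while its others gave 0.33 and -1.66, a split like that of Klf9. Myc, a growth-promoting transcription factor, had 234 on the knockout-labelled array and 488 on the control array (-1.06).

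In the KLF family, 4 of 10 genes compared passed 2-fold downward and none upward (median -0.37), where 13.0% of all genes passed downward and 6.21% upward. The downward count was 2 after centring, where 670 of all 8596 genes passed. It was 1, with a median of -0.07, when the 60th percentile served as the floor, where 601 of all 6476 genes passed. Besides Klf15 these were Klf16 (-1.38), Klf2, a factor of endothelial and immune cells (-1.27), and Klf3 (-1.04). Endothelial markers were lower as well, at 0 of 7 higher and 4 of 7 at least 2-fold lower, and their part in the Klf2 value was not tested. Of 8 genes of steroid metabolism compared, none was past 2-fold in either direction (median 0.12), where 19.2% of all genes were. The median turned to -0.38 with the median over probe sets and to -0.26 without _s_at and _x_at probe sets, where 2 genes were at least 2-fold lower. Without those probe sets 1273 of all 8275 genes were that much lower. The list had 7 more genes at the floor on both arrays, among them Cyp11a1, which makes pregnenolone from cholesterol, named after its value was seen. The 2 brightest were Hsd17b11 (1530 on the knockout-labelled array and 1344 on the control array, 0.19, with -1.77 or lower at its other probe set) and Hsd11b2, which inactivates glucocorticoids (1026 on the knockout-labelled array and 688 on the control array, 0.58).

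Of the genes named from these lists as past 2-fold, 9 were past it under all 8 other settings as well: Fkbp2, Stub1, Cdc37, Stip1, Sgta, Chordc1, Tsc22d3, Zfp36 and Hoxa11. Under at least 1 of them Esrra, Fkbp7, Fkbp8, Fkbp11, Hsp90aa1, Ncoa5, Gata2, Igf1, Myc, Klf2, Klf3, Klf15 and Klf16 were within 2-fold or at the floor. All of these genes were named because they were past 2-fold as deposited. The matching share over all genes was not computed, so the 9 are given as a description only.

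**Figure D3:**
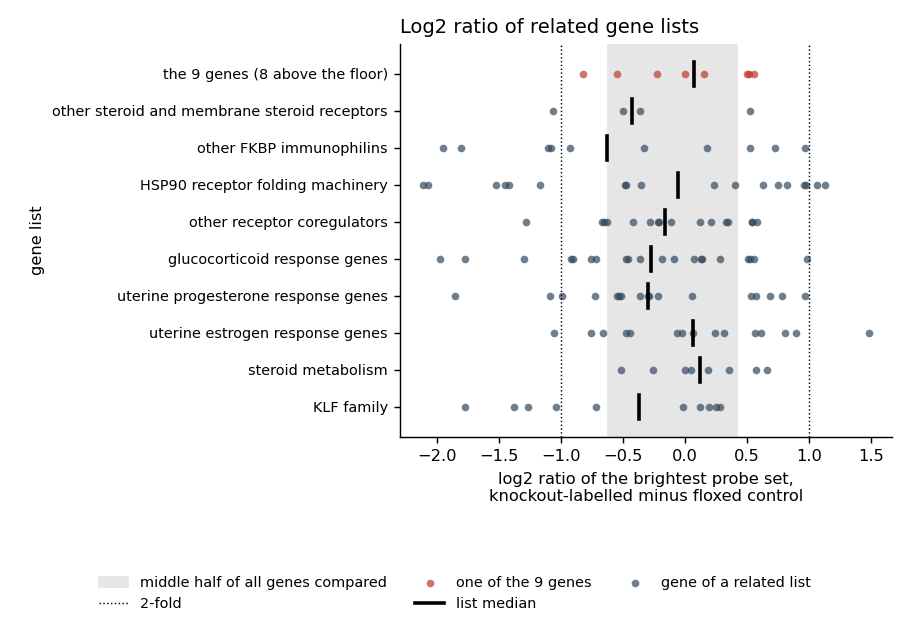
Log2 ratio (knockout-labelled minus floxed control, brightest probe set) of each gene above the floor on at least 1 array, for the 8 members and for 9 related gene lists, with list medians as bars, the interquartile range of all genes in grey and dotted lines at 2-fold. All 8 members lie between -0.83 and 0.56, while the FKBP list reaches -1.96 and the HSP90 list runs from -2.12 to 1.13.

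Scaling moved the members by less than the probe-set SD, and 1 gene changed sign with it at its brightest probe set. Centring each array on its median put the median of all genes at 0.16, where it was -0.10 as deposited, and that of the members at 0.28, where it was 0.08. Pgr and Fkbp4 were below 0 and Nr3c1 and Zbtb16 above 0 under the authors' scaling and all 8 other settings, or the 7 in which Pgr was above the floor. Fkbp5 turned positive after centring. No member gene passed 2-fold under any of them.

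**Figure D4:**
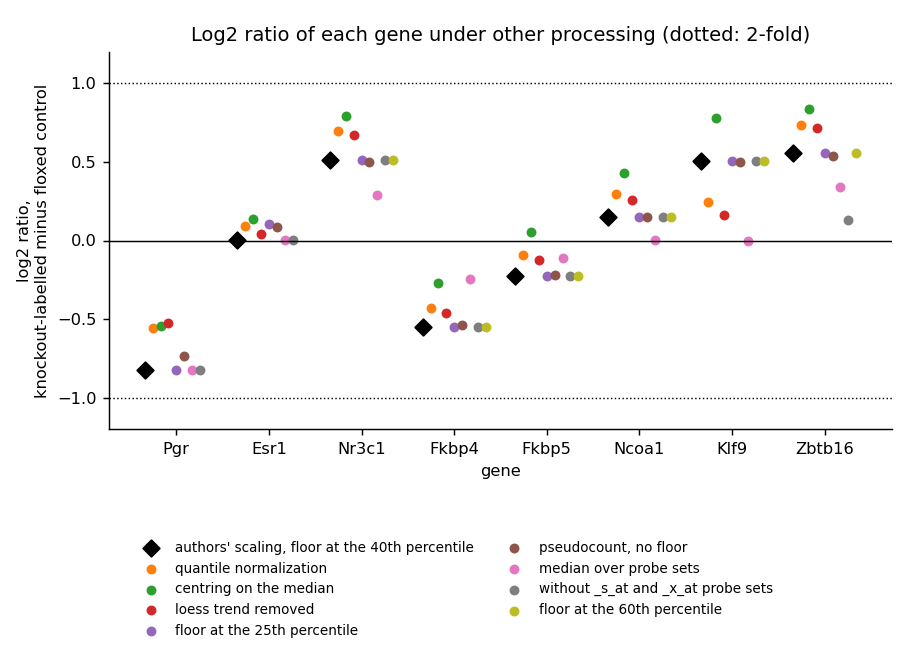
Log2 ratio (knockout-labelled minus floxed control) of the 8 genes above the floor, under the authors' scaling with the floor at the 40th percentile (diamonds) and 8 other settings (circles), with dotted lines at 2-fold. Pgr stays between -0.83 and -0.53 and Nr3c1 between 0.29 and 0.79, and no point reaches 2-fold.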

How the data were processed

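RNA of uterine stromal cells was measured on 2 one-colour arrays, 1 per genotype, each from a pool of 3 animals. The deposited values are linear intensities, 1 MAS5 signal per probe set, made by the authors with MAS5 in Affymetrix Expression Console version 1, per the submitters' processing notes. No source used here states the scaling target, and the deposited scale was kept without detection calls.

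Gene names came from the platform annotation and were updated by Entrez identifier from a RefSeq table of GRCm38.p6 (20351 of 20380 probe sets with 1 symbol). Those with several symbols (691) or none (1555) and 64 control probe sets entered no gene result, and the latter gave the 3' to 5' ratios. Signals below 19.7, the 40th percentile, were set to that floor, and all were put on a log2 scale, the brightest probe set standing for its gene. Genes at the floor on both arrays were left out. Genes were counted past 2-fold, with no test. Of each list up to 4 genes past 2-fold are named, or the 2 brightest. The members and the 9 gene lists and 5 marker lists were chosen with earlier results of these data known. Alternatives were quantile normalization, centring on the median, removal of a loess trend (span 0.4), floors at the 25th and 60th percentiles, a pseudocount of 4.70 in place of the floor, the median over probe sets, leaving out _s_at and _x_at probe sets, and sizes of 1.5-fold and 3-fold. Python 3.11.15 with statsmodels 0.14.6 was used.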

Additional observations from a re-analysis of the deposited data

How the results depend on the processing

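No paired analysis was possible because each group has 1 array and no replicate number. All log2 ratios of member genes (62 alternative values) and member probe sets (92) moved by less than the probe-set SD of 0.64. That SD is a disagreement between probe sets and not a limit for processing. Centring shifts every ratio of signals above the floor by the same amount, and a floor under both signals leaves a ratio unchanged. No member gene was at least 2-fold higher under any setting, and 1, Pgr, was lower at 1.5-fold. Of member probe sets, 1 was at least 2-fold lower, against 0 after quantile normalization, 0 after centring, 0 at 3-fold and 3 at 1.5-fold. None was at least 2-fold higher, against 1 at 1.5-fold, and 1 with the floor at the 25th percentile. The latter was the dimmest probe set of Nr3c1, at 1.24 or higher, with its control signal under that floor. All genes at least 2-fold higher numbered 534, against 1146 after centring, 285 with the median over probe sets, 1592 at 1.5-fold and 106 at 3-fold, and those lower 1119, against 670 after centring, 601 with the floor at the 60th percentile, 2268 at 1.5-fold and 330 at 3-fold. Of the 114 list genes compared, each counted once, 3 were at least 2-fold higher, where 6.21% of all genes were. That count was 14 after centring, 5 of 130 with the pseudocount, 18 at 1.5-fold and 0 at 3-fold. Lower by that size were 21 of the 114, where 13.0% of all genes were, against 13 after centring, 33 at 1.5-fold and 7 at 3-fold. Counts in single lists moved by over 1.5 times in 48 of 180 comparisons. The share of higher genes among all past 2-fold was 32.3% as deposited, 46.3% after quantile normalization, 63.1% after centring and 45.3% with the trend removed. The size rules differ by construction, and the cause of the other shifts was not tested. Signal over background limits Esr1, Ncoa2 and Pgr, which lie at, under or near the floor.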
